A study of Mus musculus with 7 samples.

Results

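Red blood cells were described from the peripheral blood library of the second of 2 runs of healthy mice. A cell was counted as a red cell when the 4 adult globin genes Hbb-bs, Hbb-bt, Hba-a1 and Hba-a2 made up at least 30% of its unique molecular identifiers (UMIs, the tags by which copies of captured transcripts are counted). This rule found 760 of the 4653 cell barcodes of the library. All 7 libraries of the series held 21763 barcodes. Because haemoglobin chose the cells, haemoglobin levels are given only as a description. The cells came from the blood of 3 untreated male C57BL/6J mice aged 8 weeks, pooled into 1 library, so that values per mouse were not obtained and no test between groups could be made. Red cells had been lysed for 3 minutes, and the remaining cells had been sorted as CD11b+ Ly6G+ and negative for propidium iodide, a gate for live neutrophils. The comparison cells were the 3877 barcodes of the same library with less than 5% haemoglobin UMIs, called neutrophils here. Of these, 3597 had at least 5% of their non-globin UMIs from a list of 15 neutrophil genes. At least 5 UMIs of lymphocyte genes were carried by 116, so that the name covers some other cells. Blood of run 1, used for comparison, came in the same way from 3 mice aged 6 weeks. The intervals given are exact 95% intervals, by Poisson for sums, by Clopper-Pearson for shares and by the conditional binomial for ratios. They cover counting error only.

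Mammalian red cells end their development without a nucleus. The reticulocyte, the last stage, leaves the marrow with ribosomes, mitochondria and a stock of messenger RNA that is mostly globin, and loses them in the circulation. Haemoglobin joins alpha- and beta-globin chains with haem, which is made by a chain of enzymes that starts with Alas2 in erythroid cells and ends with Fech. The membrane is held by a skeleton of spectrin, ankyrin and protein 4.1 anchored to the anion exchanger Slc4a1.

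The sequences before the starts of 3 of the globin genes of the rule and of Alas2, the most abundant erythroid transcript left after globin was set aside, are shown because the results below turn on these transcripts. Each is the 250 bases before the RefSeq start (GRCm38.p6), written 5′ to 3′ on the strand of the gene. Capitals mark AGATAA and TGATAA, forms of the motif known for GATA factors, and CACCC, the motif known for Klf factors, each searched on both strands. The windows lie at chr7:103827929-103828178 (minus strand) for Hbb-bs, chr7:103813924-103814173 (minus strand) for Hbb-bt, chr11:32283422-32283671 (plus strand) for Hba-a1 and chrX:150547167-150547416 (plus strand) for Alas2.
Hbb-bs: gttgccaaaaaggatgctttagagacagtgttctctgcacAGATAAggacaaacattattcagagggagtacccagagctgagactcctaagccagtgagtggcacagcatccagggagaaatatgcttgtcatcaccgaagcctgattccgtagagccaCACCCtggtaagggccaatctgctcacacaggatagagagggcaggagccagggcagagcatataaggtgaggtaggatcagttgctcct
Hbb-bt: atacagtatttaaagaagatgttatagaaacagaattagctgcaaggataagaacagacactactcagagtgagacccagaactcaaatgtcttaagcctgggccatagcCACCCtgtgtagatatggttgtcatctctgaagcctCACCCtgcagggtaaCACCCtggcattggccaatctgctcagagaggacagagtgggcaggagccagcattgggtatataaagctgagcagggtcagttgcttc
Hba-a1: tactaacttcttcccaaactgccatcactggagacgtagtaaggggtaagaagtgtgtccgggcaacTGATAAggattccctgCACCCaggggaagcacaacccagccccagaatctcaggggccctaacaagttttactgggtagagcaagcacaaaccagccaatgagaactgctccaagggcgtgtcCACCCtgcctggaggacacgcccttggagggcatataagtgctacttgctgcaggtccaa
Alas2: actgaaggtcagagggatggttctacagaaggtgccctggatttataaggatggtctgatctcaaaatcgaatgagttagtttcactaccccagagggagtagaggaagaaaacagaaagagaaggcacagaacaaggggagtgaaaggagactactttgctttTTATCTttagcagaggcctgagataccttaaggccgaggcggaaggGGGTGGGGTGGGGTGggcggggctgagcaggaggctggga
All 4 windows held CACCC, as did 52.0% of all 32851 windows of this length. AGATAA stood in the windows of Hbb-bs and Alas2 and in 9.99% of all windows, and TGATAA stood in that of Hba-a1 and in 7.94% of all. Of the 20 genes with the highest ratios below, 13 had a window, of which 4 held AGATAA, 1 held TGATAA and 8 held CACCC. A match describes letters only. The coding sequences of Hbb-bs and Hbb-bt differed at 1 of 444 bases in the GENCODE M21 transcripts, and those of Hba-a1 and Hba-a2 at 1 of 429. By the methods of the study the library was made with a 3′ kit, and sequence past the coding frame was not compared. How well the UMIs within each pair can be told apart was not tested.

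Haemoglobin divided the library into 2 bodies of cells with few between them. The neutrophils numbered 3877 and the red cells 760, or 16.3% of barcodes (15.3% to 17.4%), with 16 barcodes between 5% and 30%. Of the red cells, 677 had at least 90% haemoglobin UMIs and 83 had 30% to 90%. The 3 members nearest to the limit had 31.7%, 33.7% and 39.0%, and the 3 cells nearest outside had 29.5%, 26.1% and 25.3%. By the same rule there were 34 red cells among 1588 barcodes in blood of run 1, 13 in bone marrow of run 1, 9 in bone marrow of run 2, 1 in spleen of run 1, and none in spleen of run 2 or in the inflammation library, whose 4353 and 4856 barcodes allow shares of up to 0.0689% and 0.0618% by a limit of 3 counts, used here wherever a count was 0. Of the sequences that served as barcodes of red cells, 8 also occurred in bone marrow of run 2, 7 in spleen of run 2 and 1, 1 and 2 in run 1 blood, marrow and spleen. Of all 4653 barcodes of the library, 36, 30, 13, 4 and 4 occurred in these libraries.

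**Figure D1:**
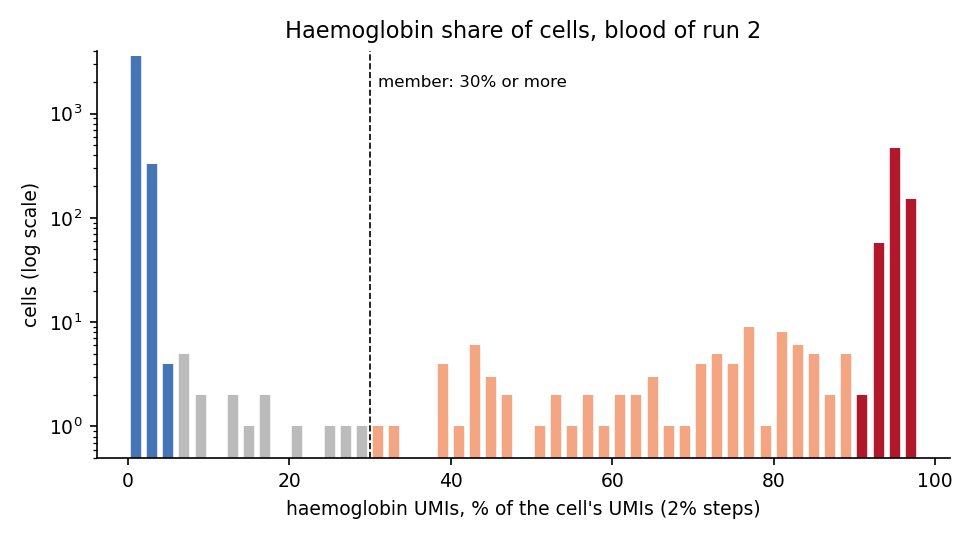
Number of cells of the blood library of run 2 (vertical axis, log scale) by the share of their UMIs that came from Hbb-bs, Hbb-bt, Hba-a1 and Hba-a2 (horizontal axis, steps of 2%). Blue bars are the 3877 cells under 5%, grey bars the 16 cells between, orange bars the 83 red cells from 30% to 90% and dark red bars the 677 red cells at 90% or more.

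A red cell held a median of 2722.5 UMIs, against 827 in a neutrophil, but a median of only 130 were not globin, against 817 in a neutrophil. The lowest total was 588 UMIs in both. The red cells summed to 2217491 UMIs, of which 92.2% were haemoglobin and 171789 were not globin. The 83 red cells with 30% to 90% haemoglobin held 45.9% of these, at a median of 846 per cell, while the 677 others held a median of 118 per cell (19 to 536). For this reason values are also given for the cells at 90% or more, a limit set after the data had been seen.

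Among the globins the red cells carried nearly equal amounts of alpha and beta chains. Hbb-bs gave 835571 UMIs, or 40.8% of haemoglobin, Hba-a1 550636 (26.9%), Hba-a2 505114 (24.7%) and Hbb-bt 154294 (7.54%). All 4 were found in every red cell. The alpha genes made up 51.6% (51.5% to 51.7%) of haemoglobin UMIs in red cells and 37.8% (37.4% to 38.3%) in neutrophils, all but 1 of which also held a haemoglobin UMI, at a median of 10 per cell. In the 116 cells under 5% haemoglobin that carried at least 5 UMIs of lymphocyte genes the alpha share was 34.9% (32.7% to 37.1%), close to that of the neutrophils. Single cells spread widely, from 44.7% to 62.2% (5th to 95th percentile) in red cells and 12.5% to 66.7% in neutrophils, and since these genes chose the groups the shares are a description. The theta-globin genes Hbq1a and Hbq1b gave 53 and 27 UMIs in red cells and 2 and 1 in neutrophils. Of the embryonic globins, Hbb-bh1 gave 7 UMIs in red cells, all in the cells at 90% or more, and 0 in neutrophils, while Hbb-y, Hba-x and Hbb-bh2 gave 0 in both.

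After all globin genes were left out, erythroid transcripts stood far above their level in neutrophils, on a background of transcripts common to neutrophils. Levels are given as CPM, the UMIs of a gene for every 1000000 non-globin UMIs of a group, and a ratio is the level in red cells over that in neutrophils. Of 6594 genes with at least 20 UMIs in both groups together, 229 (3.47%) were at least 4-fold higher in red cells and 67 (1.02%) at least 4-fold lower, with a median log2 ratio of 0.01 over all of them. The 229 genes made up 18.6% of the non-globin UMIs of red cells and 0.903% of those of neutrophils, and the counting interval of each lay above 1. Of the 229, 122 had at least 20 UMIs in red cells, and the others rest on fewer. The red cells at 90% or more gave 285 higher genes of 6523 (4.37%) and 133 lower (2.04%), and the 285 genes made up 35.7% of their non-globin UMIs. When each cell had equal weight, by the mean of single-cell shares, 362 genes were higher and 887 lower, so that the split between the directions depends on how cells are weighted. With 1 library a side, none of these counts has a replicate check.

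Genes of haem synthesis and iron were led by Alas2 (chrX:150547375-150570638), which was at 22638 CPM in red cells and 49.5 in neutrophils, from 3889 and 181 UMIs. Its ratio was 458 (394 to 534), and 91.2% of red cells held at least 1 UMI. Fech, which puts iron into the haem ring, had 694 and 66 UMIs, a ratio of 224 (174 to 293). Of the 15 genes of this list of 26 that had 20 UMIs, 8 were at least 4-fold higher and none lower, with a median log2 ratio of 3.17, beside 0.01 over all genes. The others higher included Urod (9.00-fold), an enzyme midway in the chain, and the mitochondrial carriers Slc25a37 (39.5-fold), which brings iron in, and Slc25a39 (34.2-fold). Glrx5 (45.7-fold), which serves iron-sulphur clusters, and Blvrb (28.8-fold) were higher too. Ncoa4, the receptor for ferritin breakdown, was 9.47-fold higher on only 8 and 18 UMIs. The ferritin chains were abundant in both groups, with Ftl1 at 17510 and 10307 CPM (1.70-fold) and Fth1 at 9337 and 8331 (1.12-fold). Other enzymes of the chain were sparse, with 2 UMIs of Cpox, 6 of Ppox and 0 of Alad and Uros in all red cells. Tfrc, the transferrin receptor of immature reticulocytes, was at 0 UMIs in red cells, which by the limit of 3 counts allows up to 17.5 CPM or 0.395% of cells with a UMI. The library was therefore not divided into reticulocytes and older red cells by this gene.

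Genes of the membrane were fewer in UMIs, and most of those with 20 were higher. Slc4a1, the anion exchanger, had 90 and 9 UMIs, a ratio of 213 (107 to 481). Epb41, protein 4.1 of the skeleton, was 41.3-fold higher with 194 and 100 UMIs. Cd24a, a surface protein of immature blood cells, had 766 and 1503 UMIs, a ratio of 10.9 (9.94 to 11.9). Of 10 genes of this list of 31 with 20 UMIs, 7 were at least 4-fold higher and none lower, and the median log2 ratio was 3.15. Mpp1, Stom and Bsg were also higher, at 7.28-fold, 14.9-fold and 5.805-fold, with Stom on only 14 and 20 UMIs. Sptb, a spectrin of the skeleton, gave 2 UMIs in red cells and 0 in neutrophils, and Ank1, ankyrin, 0 in both. Cd47, the signal against uptake by macrophages, was at a ratio of 0.947 (50 and 1125 UMIs), not apart from neutrophils at 4-fold.

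Genes of organelle clearance and ubiquitin made up 5.38% of non-globin UMIs in red cells and 1.04% in neutrophils. Mkrn1, a ubiquitin ligase, had 1846 and 887 UMIs, at 10746 and 242 CPM, a ratio of 44.3 (40.9 to 48.1). Bnip3l, the receptor by which reticulocytes clear mitochondria, had 1156 and 797 UMIs, a ratio of 30.9 (28.2 to 33.9). Ube2l6, a conjugating enzyme, had 1093 and 89 UMIs and a ratio of 262 (211 to 329). Ube2o, which marks ribosomal proteins for loss in reticulocytes, had 96 and 18 UMIs and a ratio of 114. Of 18 genes with 20 UMIs, 11 were at least 4-fold higher, and 1 was lower, the autophagy kinase Ulk1, on 1 UMI in red cells against 144. Ubb, a ubiquitin gene, was the most abundant of the list at 15077 and 5059 CPM (2.98-fold, and 4.43-fold in cells at 90% or more). Gabarapl2, an autophagy protein, was 12.4-fold higher, and Bcl2l1, which guards erythroid cells against death, 57.7-fold higher.

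Antioxidant and red cell enzymes did not move as a body. Of 23 genes with 20 UMIs in this list of 29, 8 were at least 4-fold higher and none lower, and the median log2 ratio was 0.18. Bpgm, which makes the 2,3-bisphosphoglycerate that loosens oxygen from haemoglobin, had 1553 and 64 UMIs, a ratio of 517 (403 to 675). Car2, carbonic anhydrase, had 356 and 21 UMIs and a ratio of 361 (233 to 591). Catalase (Cat, 76.3-fold), Prdx2 (62.8-fold), Hagh (60.2-fold), Nt5c3 (25.0-fold) and Acp1 (4.62-fold, on 18 and 83 UMIs) were also higher, and Gpx1 was at 3.85-fold. The enzymes of glycolysis, by which red cells live, were not among them. Aldoa was at a ratio of 0.826, Eno1 at 0.866, Gpi1 at 0.811, Ldha at 0.771 and Gapdh at 0.547, all with at least 44 UMIs in red cells, and Pklr, the red cell pyruvate kinase, was at 0 UMIs in both groups.

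The main erythroid regulators Klf1 and Gata1 were near 0, while other factors of the list were found. Klf1 gave 0 UMIs in both groups and Gata1 2 and 3. Of 11 genes of this list with 20 UMIs, 3 were at least 4-fold higher: Tfdp2 (114 and 10 UMIs, 243-fold), a partner of E2F factors in erythroid cells, Lmo2 (36 and 87 UMIs, 8.82-fold) and E2f2 (23 and 122 UMIs, 4.02-fold). Among 18 cell cycle genes, 5 had 20 UMIs, and Ube2c, a conjugating enzyme of mitosis, was the only one at least 4-fold higher, with 129 and 34 UMIs (80.8-fold). Mki67 was at 0 and Top2a at 2 UMIs in red cells.

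RNAs of the nucleus and of organelles did not all go one way. Malat1, which stays in the nucleus, was at 20450 CPM in red cells and 35983 in neutrophils, and at 8131 in red cells at 90% or more, a ratio of 0.226 there. Neat1, another RNA of the nucleus, was at a ratio of 1.66 (1.44 to 1.90), and 2.27 (1.93 to 2.66) at 90% or more. Of 5 noncoding RNAs of this list with 20 UMIs, 1 was at least 4-fold higher and none lower. The higher one was Gm26917 (15.1-fold), annotated as a long noncoding RNA, and its place in the cell was not tested. At 90% or more Malat1 and Mir142hg (1 UMI against 745) were at least 4-fold lower. Transcripts of the mitochondrial genome made up 1.10% of non-globin UMIs in red cells, 1.44% in those at 90% or more and 0.425% in neutrophils. The highest of them, mt-Co1, was at 5076 and 1283 CPM (3.96-fold), and of 12 genes with 20 UMIs 1 was at least 4-fold higher, mt-Atp8, on 10 and 27 UMIs. At 90% or more 3 of the 12 were higher, mt-Co1 among them at 5.75-fold. Ribosomal protein genes made up 6.43% and 6.26%, and of 90 with 20 UMIs 1 was at least 4-fold higher and none lower, at a median log2 ratio of -0.06. In red cells at 90% or more 1 was higher and 5 lower, at a median of -0.40. Within them Rpl41 was at a ratio of 2.39, and 3.22 at 90% or more, while Rps27 was at 0.638 and 0.247. None of the 8 genes of MHC class I presentation passed 4-fold, and B2m was at a ratio of 0.739.

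Some of the highest ratios belonged to genes outside these lists. Rec114, named for meiotic recombination, had the highest of all, with 219 UMIs in red cells and 1 in neutrophils, a ratio of 4666 (829 to 185120), and 19.5% of red cells held a UMI. The gene lies at chr9:58652850-58743964. Apol11b (113 and 1 UMIs), an apolipoprotein L gene, Paqr9 (56 and 1), Trim10 (45 and 1), a ubiquitin ligase gene known from erythroid cells, and Diaph3 (77 and 2), an actin-nucleating formin, followed. Fam213a (276 and 18 UMIs) was 327-fold higher. Tspo2, an erythroid relative of a mitochondrial cholesterol carrier, had 43 UMIs in red cells and 0 in neutrophils, and was at least 305-fold higher when the 0 was set at 3 counts. Aldh1a1 (43 and 2), Cdr2 (53 and 3), Gm10371 (22 and 1) and Gstm5 (20 and 1) were also among the 20 highest.

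The most abundant non-globin transcript depended on the haemoglobin share. Over all red cells it was S100a8, a calcium-binding protein of neutrophils, at 46807 CPM, against 104382 in neutrophils (0.448-fold), and S100a9 was at 33163 and 64514 (0.514-fold). Tmsb4x, Alas2, Malat1, Ftl1, Ubb, Mkrn1 and Actb were also among the 10 largest. In the 677 cells at 90% or more Alas2 was first at 37726 CPM, followed by S100a8 at 28572, S100a9 at 23521, Ftl1 at 22724 and Ubb at 22422. The 15 genes of the neutrophil list made up 9.98% (9.84% to 10.1%) of non-globin UMIs in red cells, 13.7% in those with 30% to 90% haemoglobin, 6.79% in those at 90% or more and 20.1% in neutrophils. None of the 15 passed 4-fold in either direction over all red cells. At 90% or more 2 of the 15 were at least 4-fold lower, Wfdc21 (0.2497-fold) and Ly6g (0.223-fold). In the same cells, the 13 genes of the list with at least 1000 UMIs in neutrophils stood at 0.2497 to 0.681 of the neutrophil level, with a median of 0.519. The mean of S100a8 was 98.5 UMIs per cell in neutrophils, 64.9 in red cells with 30% to 90% haemoglobin and 3.92 in red cells at 90% or more. The median of the whole list was 152, 100 and 8 UMIs per cell in these groups, and 12.5 in the lymphocyte-marker cells. The genes of the sort gate were at 10 UMIs for Ly6g and 20 for Itgam (CD11b) in all 760 red cells, against 530 and 789 in the neutrophils, and none of the 4 genes for the gate and for leukocyte surface proteins passed 4-fold. In red cells at 90% or more Ly6g, with 3 UMIs, was at a ratio of 0.223 (0.0459 to 0.656) and so passed 4-fold lower. The part of neutrophil RNA free in the suspension, and of cells captured together, in these values was not tested.

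The genes lowest in red cells among those with at least 1000 UMIs in neutrophils included the granule protein genes of developing neutrophils Camp (63 and 4577 UMIs, 0.293-fold) and Ngp (104 and 5099, 0.435-fold). Il1f9 (0.434-fold), Wfdc21 (0.458-fold), Gm5483 (0.357-fold), Sirpb1c (0.411-fold), S100a8, Samsn1 (0.476-fold), Kdm6b (0.480-fold) and Tmcc1 (0.483-fold) made up the 10. When each cell had equal weight, Camp and Ngp turned direction, to log2 ratios of 0.60 and 0.75 from -1.77 and -1.20, and a UMI of Camp was found in 6.45% of red cells and 5.62% of neutrophils. All 67 genes that were 4-fold lower rested on 1 to 3 UMIs in red cells, and the counting interval of 29 of them lay below 1. The most abundant of these 29 in neutrophils was Stfa1, a protease inhibitor gene, with 1 UMI in red cells and 627 in neutrophils, a ratio of 0.0340 (0.000859 to 0.190).

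Of the markers of other blood cells, those of platelets took a larger share of non-globin UMIs in red cells. Those of lymphocytes lay mostly in few cells. Of 20 lymphocyte genes, 15 had 20 UMIs and 4 were at least 4-fold higher, all known from natural killer cells (Gzma, Nkg7, Klrb1c and Ncr1). Of the 226 lymphocyte UMIs in red cells, 147 lay in 3 cells, all with 30% to 90% haemoglobin, and none of the 4 passed 4-fold in the cells at 90% or more. Cd3e was at 0 UMIs in red cells. Of 10 platelet genes with 20 UMIs, 8 were at least 4-fold higher, among them Pf4 (65 and 263 UMIs, 5.27-fold) and Itga2b (20 and 35 UMIs, 12.2-fold), while Cd9 was at 0.971-fold. At 90% or more 9 of the 10 were higher, with Pf4 at 7.49-fold and Itga2b at 19.1-fold. Without Cd9, platelet UMIs were found in 19.9% of red cells and 13.9% of neutrophils, and 5 red cells held 5 or more. Monocyte and basophil genes gave 57 and 5 UMIs in red cells, with F13a1 (6 and 17 UMIs) the only one at least 4-fold higher.

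Composition changed with the haemoglobin share of the cell. The genes of haem synthesis and iron made up 1.70% of non-globin UMIs in the 18 cells with 30% to 50% haemoglobin, 2.502% in the 16 cells to 70%, 2.99% in the 23 to 80%, 4.18% in the 26 to 90%, 7.75% in the 220 to 95% and 8.84% in the 457 above. The neutrophil list went from 11.7%, 17.2%, 15.0% and 11.7% below 90% to 6.201% and 7.23% above. In amount per cell, the mean of the erythroid transcripts differed less across the 90% limit than that of S100a8 and Malat1. The haemoglobin share counts all UMIs of a cell, so that cells with many non-globin UMIs fall below 90% by definition. The difference in abundant non-globin transcripts is therefore partly set by the limit, and these values are a description. Alas2 gave 4.65 UMIs per cell from 30% to 90% and 5.17 above, Mkrn1 2.096 and 2.47 and Bpgm 1.89 and 2.06, while S100a8 gave 64.9 and 3.92 and Malat1 33.2 and 1.12. Below 90% the amounts differed between bins. From 30% to 50%, 50% to 70%, 70% to 80% and 80% to 90%, Alas2 gave 1.78, 4.38, 5.304 and 6.23 UMIs per cell, and Mkrn1 0.778, 0.688, 2.48 and 3.54. Cells under 70% thus held fewer Mkrn1 UMIs than those above, from 18 and 16 cells. Doublets were not called, and their part was not tested.

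**Figure D2:**
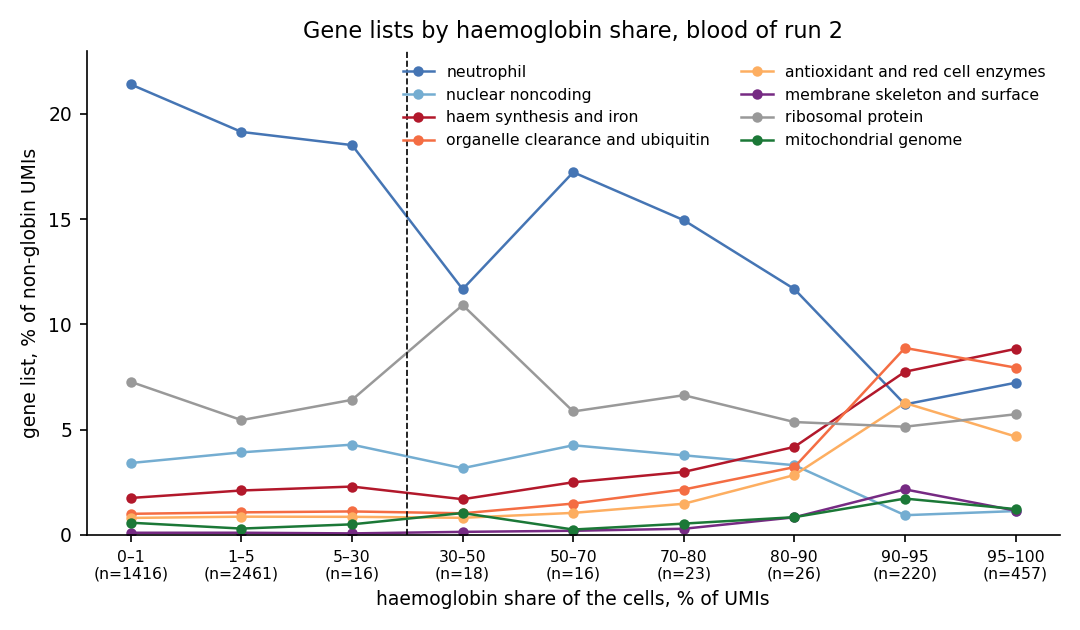
Share of non-globin UMIs (vertical axis, %) taken by 8 gene lists in cells of rising haemoglobin share (horizontal axis, with the number of cells), red cells lying to the right of the dashed line. Lines for haem synthesis and iron reach 8.84% at the right, while the neutrophil list goes from 21.4% in the cells under 1% to 7.23%.

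Among the 677 cells at 90% or more, the share of Hbb-bt varied widely. Hbb-bt made up 15.6% of their Hbb-bs and Hbb-bt UMIs together, but 0.727% to 27.8% in single cells, with a median of 15.3%. The standard deviation over cells was 6.04%, where counting error around the pooled share alone would give 1.21%. These globins are part of the rule and their split was not checked, so the shares only order the cells. The counts of cells by steps of 2% had a peak of 43 cells at 2% to 4% and at 4% to 6%, a low of 25 at 8% to 10% and a higher peak of 100 at 14% to 16%. The bins used next were set after these values had been seen, and they compare non-globin transcripts, which the bins did not use.

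Alas2, Ube2l6 and Fech were present at all Hbb-bt shares, while Mkrn1, Bpgm and Bnip3l were lower in the cells with little Hbb-bt. In the 59 cells with less than 4% Hbb-bt and the 69 cells with 4% to 8%, Alas2 was at 24772 (19237 to 31405) and 44704 (38650 to 51438) CPM, against 34167 to 43199 in the 4 bins above. Ube2l6 was at 10929 and 9629 CPM, against 9487 to 12372, and Fech at 6193 and 5273, against 5836 to 7341. The intervals of these 2 genes overlapped between all bins, while that of Alas2 in the lowest bin lay below the others. Mkrn1, in contrast, was at 2550 (1025 to 5254) and 2293 (1099 to 4216) CPM below 8% and at 21061 (19468 to 22750) in the 185 cells with 12% to 16%. Bpgm was at 2914 and 6190 CPM below 8%, and at 15388 to 17324 above 12%. Bnip3l was at 364 and 2751 CPM below 8%, 8572 from 8% to 12%, and 11197 to 13453 above. Car2 and Ube2c each gave 0 UMIs in the 128 cells below 8% and 326 and 119 UMIs in the others. The counting intervals of these 0 counts reach 1344 CPM in the 59 cells and 846 CPM in the 69 cells. At similar depth Car2 was near 0 also in cells with more Hbb-bt, as given below.

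Cells with little Hbb-bt were also shallower, with medians of 924 and 1481 UMIs in the 2 lowest bins and 2260 to 3426 in the others, and their neutrophil share was higher, at 9.84% and 9.08% against 6.28% to 7.81%. Among the 241 cells with 1000 to under 2500 UMIs, the 81 cells below 8% Hbb-bt had a median of 1459 UMIs and the 121 cells above 12% one of 2047. Alas2 was there at 42406 and 41899 CPM, Mkrn1 at 2891 (1618 to 4769) and 16760 (14401 to 19395), Bpgm at 5975 and 13315 and Bnip3l at 2313 and 8194. Car2 gave 0 and 5 UMIs in them, so that its difference was not countable within this range of depth. Over all 677 cells the alpha share of haemoglobin fell with the total UMIs of the cell, from 55.8% in the fifth of cells with the fewest UMIs to 48.9% in the fifth with the most (Spearman's rho of -0.45 over cells, which share 1 library).

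**Figure D3:**
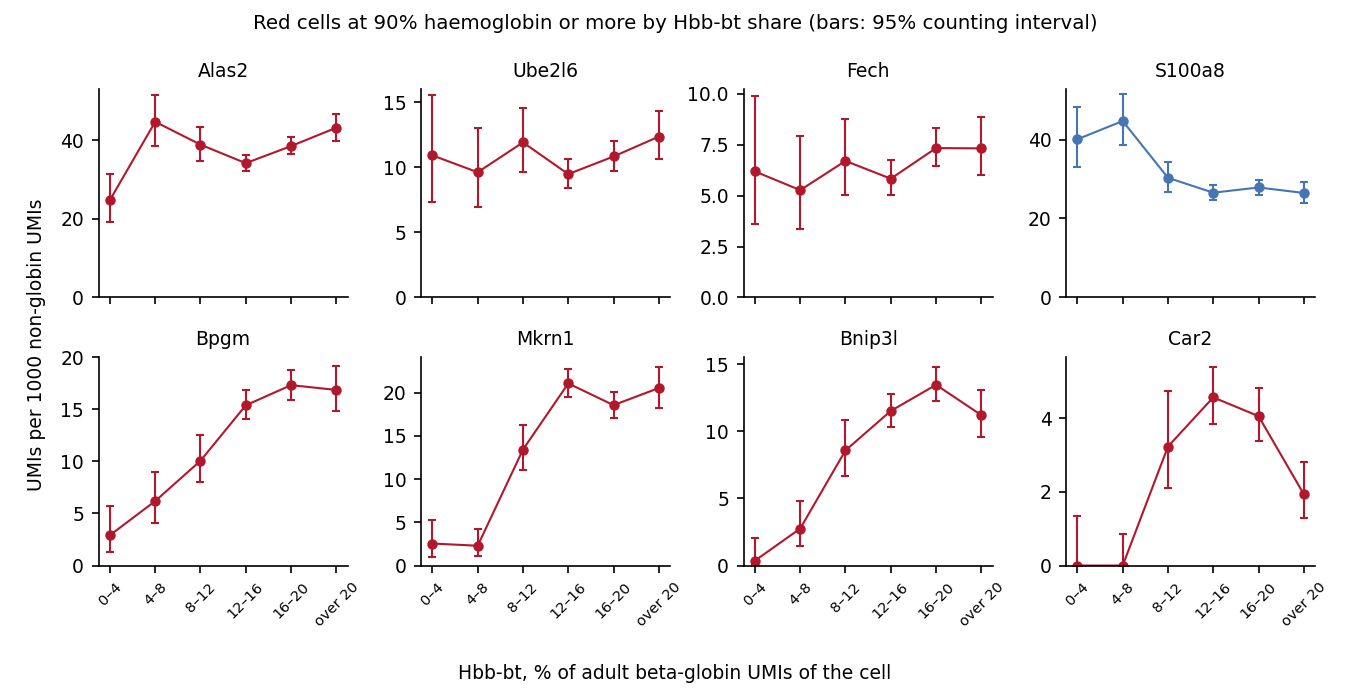
Levels of 8 genes, in UMIs per 1000 non-globin UMIs with 95% counting intervals (vertical axes), in red cells at 90% haemoglobin or more grouped by the share of Hbb-bt in their adult beta-globin UMIs (horizontal axis; 59, 69, 69, 185, 190 and 105 cells). The intervals of Ube2l6 and of Fech overlap between all bins, and Alas2 is lowest in the lowest bin. Bpgm, Mkrn1, Bnip3l and Car2 are low or at 0 in the 2 lowest bins. These bins also hold the shallowest cells, and the difference of Car2 was not countable at similar depth.

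Erythroid transcripts were found in a far larger share of red cells than of neutrophils at equal depth. When each cell was thinned to 50 non-globin UMIs, which left out 67 red cells and no neutrophil, the median was 42 genes in red cells (5th to 95th percentile 38 to 47) and 39 in neutrophils (30 to 46), against 97 and 391 before thinning. Both medians lie near the 50 that this depth allows, so that they compare little. At this depth 77.5% of red cells and 0.413% of neutrophils held Alas2, 41.1% and 0.129% Bpgm, 45.7% and 1.21% Mkrn1, 40.4% and 0.181% Ube2l6 and 7.22% and 0.0258% Car2. Before thinning Alas2 was in 91.2% and 4.59%, Bpgm in 66.97% and 1.62% and Mkrn1 in 68.2% and 19.9%. S100a8 was in 80.2% of thinned red cells and 91.5% of thinned neutrophils.

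The 34 red cells of blood of run 1, the only other library with at least 20, were also led by Alas2 among erythroid transcripts, on far fewer UMIs. They held 4588 non-globin UMIs, so that 1 UMI equals 218 CPM, against 171789 in run 2, and 33 of the 34 had at least 90% haemoglobin. Of 6014 genes with 20 UMIs in that library, 458 (7.62%) were at least 4-fold higher in red cells and 22 lower. Of the 458, 277 rested on 1 UMI in red cells, and of the 22, 17 rested on 1 to 3. Of the 20 genes with the highest ratios in run 2, 9 were among the 7578 genes listed for run 1, and all 9 had UMIs in its red cells and were at least 4-fold higher. Alas2 had 198 UMIs in red cells and 2 in cells under 5% haemoglobin, at 43156 and 1.08 CPM, beside 37726 CPM in run 2 cells at 90% or more. Bpgm was at 21796 CPM, beside 15034, and Mkrn1 at 27463, beside 18007. Gpx1, glutathione peroxidase, was at 22232 CPM, beside 8239 in run 2. The neutrophil list made up 6.47% of non-globin UMIs in these cells and 23.2% in the others of that library. The 2 libraries differ in run, age of the mice and software version at once, and these cannot be told apart. By the methods of the study both were made with the same chemistry of the droplet kit.

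**Figure D4:**
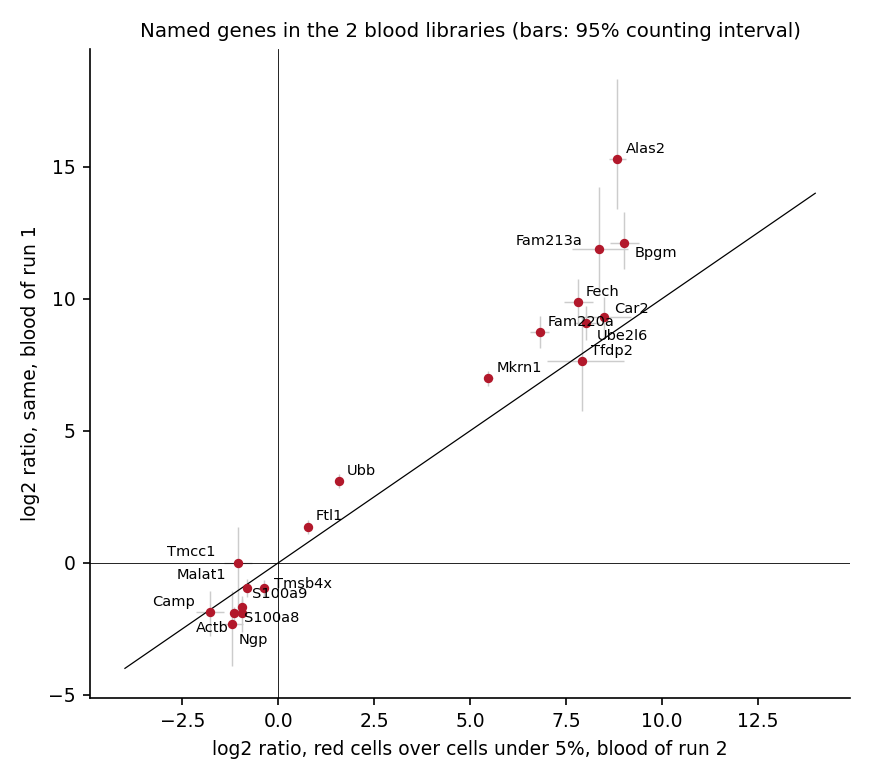
Log2 ratio of red cells over cells under 5% haemoglobin in blood of run 1 (vertical axis) against run 2 (horizontal axis) for named genes with at least 4 UMIs in red cells of run 1. Bars are 95% counting intervals, and the solid line marks equal ratios; erythroid genes such as Mkrn1, Alas2 and Bpgm are above 0 in both libraries, while S100a8, S100a9, Camp, Ngp and Actb are below 0 in both and Tmcc1 is near 0 in run 1.

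The shares of alpha and beta chains in the red cells of each library are given side by side, with no comparison, since they rest on few cells and, in run 2 blood, also went with the depth of the cell. Alpha genes made up 51.6% of haemoglobin UMIs in the red cells of run 2 blood. The share was 46.95% (46.7% to 47.2%) in the 34 red cells of run 1 blood, 46.2% (45.9% to 46.5%) in the 13 of run 1 marrow and 45.8% (45.3% to 46.4%) in the 9 of run 2 marrow. The 1 red cell of spleen of run 1 had 47.6%. Hbb-bs stood to Hbb-bt as 5.42 to 1 in run 2 blood, 4.90 to 1 in run 2 marrow, 3.08 to 1 in run 1 blood and 3.06 to 1 in run 1 marrow. In cells under 5% haemoglobin the alpha share was 37.8% in run 2 blood, 39.6% in run 2 marrow, 18.8% in run 1 blood and 26.8% in run 1 marrow.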

How the data were processed

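The authors deposited unnormalized UMI counts of genes by barcode, with 1 table a library, made by Cell Ranger (version 2.1.0 for run 2 and 1.2.0 for run 1) on mm10. By the methods of the study, hashtag doublets had been removed from the inflammation library, and its table matches that step in its number of barcodes. No haemoglobin, doublet or free-RNA correction was applied here. Counts were summed over red cells and over cells under 5% haemoglobin, and shares were taken after all globin genes were left out. A gene was called at 4-fold among genes with at least 20 UMIs in both groups together. A group at 0 was set at 3 counts, and a gene at 0 in red cells was never called higher. With 1 library, no test was run. Named genes were the 20 highest ratios (at least 20 UMIs in red cells), the 10 largest shares, the 10 lowest ratios (at least 1000 UMIs in neutrophils), the globins, and 4 per gene list, with defining genes at 0; other list members, and genes compared by Hbb-bt share, were chosen after their values were seen. The members and lists were chosen with earlier results of these data known. Some genes that the rule names are not reported here. The calculation of ratios was checked on simulated counts with known folds, which checks the code and not these data. Python 3.11.15, numpy 2.4.6 and scipy 1.17.1 were used, with edgeR 4.0.16 for TMM factors only, and promoters and gene positions came from RefSeq (GRCm38.p6) and GENCODE M21.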

Additional observations from a re-analysis of the deposited data

How the results depend on the processing

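The number of red cells was 742 to 764 under the limits of 20% and 50% and with all globins counted as haemoglobin, and 677 at 90% (a limit chosen after seeing the data). The 229 genes higher in red cells became 395 with a filter of 10 UMIs, 132 with 50 and 1129 with none, as fewer or more genes entered, and 362 with the mean of single-cell shares. The 67 lower genes became 887 with the mean of single-cell shares and 133 in cells at 90% or more; a cause was not tested. A ratio of 2-fold, also chosen after seeing the data, gave 779 higher and 634 lower. All other alternatives kept both counts within 1.5 times, and TMM and median-of-ratios scaling, which lowered every log2 ratio by 0.16 and 0.17, gave 206 and 96 each. Of 43 genes named for their ratio or share and followed through 11 alternatives, the 22 followed as higher stayed at least 4-fold higher. Camp and Ngp, below 0 otherwise, turned to log2 ratios of 0.60 and 0.75 with the mean of single-cell shares. Genes of the lists not followed in this way include Gzma and Nkg7, which did not pass 4-fold at 90% or more. No paired analysis was possible because the result comes from no test. Leaving out a replicate was not possible with 1 library. The depth of 130 non-globin UMIs per cell limits single-cell statements to abundant genes.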
